A study of Mus musculus with 2 samples.

Results

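The 9 apolipoprotein genes Apoa1, Apoa2, Apoa4, Apoa5, Apob, Apoc1, Apoc3, Apoe and Apoh were taken by gene symbol from the 32285 genes counted in 2 mouse liver libraries, and each symbol had 1 row. The libraries were 10x Genomics single-cell RNA libraries (v3 chemistry) of collagenase-digested liver, enriched for non-parenchymal cells, from 5-month-old male mice on standard chow. In Hep-ADKTg (Tg) mice the albumin promoter drives overexpression of adenosine kinase (Adk) in hepatocytes. Hep-ADKWT (WT) mice are the genotype-matched controls. There was 1 library per genotype, the labels do not say whether animals were pooled, and genotype, animal, preparation and library cannot be told apart. No difference below therefore has a replicate check, and the intervals given are exact 95% intervals that cover counting error only.

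Apolipoproteins are the protein part of the particles that carry lipid through blood, and hepatocytes make most of them. Apob wraps the particles that export triglyceride from liver and gut, Apoa1 and Apoa2 form high-density lipoprotein, the small Apoc proteins, Apoa4, Apoa5 and Apoe exchange between particles and govern lipolysis and uptake, and Apoh is a phospholipid-binding plasma protein. Apoe is also made by macrophages and several other non-hepatocyte cells, where it takes part in cholesterol export.

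In the GRCm38 build with GENCODE M21 gene models, Apoa1 (9:46228580-46230466, plus strand), Apoc3 (9:46232933-46235636, minus strand), Apoa4 (9:46240696-46243459, plus strand) and Apoa5 (9:46268633-46271919, plus strand) lie within 43.3 kb of chromosome 9. Apoe (7:19696109-19699188) and Apoc1 (7:19689481-19692660) lie within 9.71 kb on the minus strand of chromosome 7. Apoa2 (1:171225054-171226379), Apob (12:7977648-8016835) and Apoh (11:108343354-108414396) stand alone on the plus strand. Antisense genes are annotated over Apoa4 (Gm47528 and Gm10680) and Apoa5 (Gm47544), and the long Apoh model overlaps Gm11656 on its own strand and Prkca on the other. The sources used here do not say whether counting used strand.

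RefSeq promoters (GRCm38.p6) were matched for 7 of the 9 genes. The 250 bases before the start are printed for 3 genes that behave differently below, and in each the RefSeq start equals the GENCODE start. Apoe has its own source outside hepatocytes, Apoa2 was higher in Tg in every hepatocyte-like group compared, and Apoa5 changed direction between such groups. Capitals mark the letters TATAAA, and Apoe (7:19699189-19699438, minus strand), Apoa2 (1:171224804-171225053, plus strand) and Apoa5 (9:46268383-46268632, plus strand) read, from 5′ to 3′:
Apoe: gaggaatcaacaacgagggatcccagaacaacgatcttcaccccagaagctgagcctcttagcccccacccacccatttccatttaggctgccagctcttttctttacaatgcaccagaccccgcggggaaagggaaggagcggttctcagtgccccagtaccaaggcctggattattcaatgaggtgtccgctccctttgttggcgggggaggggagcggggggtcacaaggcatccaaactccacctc
Apoa2: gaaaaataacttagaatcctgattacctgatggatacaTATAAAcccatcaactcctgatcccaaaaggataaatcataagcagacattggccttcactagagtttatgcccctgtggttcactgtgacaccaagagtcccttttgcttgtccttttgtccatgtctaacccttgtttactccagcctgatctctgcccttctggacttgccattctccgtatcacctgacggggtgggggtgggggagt
Apoa5: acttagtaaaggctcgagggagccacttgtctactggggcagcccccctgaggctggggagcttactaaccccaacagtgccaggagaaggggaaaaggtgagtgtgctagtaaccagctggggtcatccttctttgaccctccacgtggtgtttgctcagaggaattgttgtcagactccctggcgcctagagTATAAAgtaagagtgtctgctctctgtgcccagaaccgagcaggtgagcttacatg
On either strand, TATAAA stands in 12.4% of 32851 RefSeq promoters of this length. It begins 56 bases before the start in Apoa5, 60 bases before it in Apob and 212 bases before it in Apoa2. AGGTCA, letters recognised by nuclear receptors, stands in 14.0% of promoters and, of the 7, in Apoh alone. CAAAGTCCA, letters from the core bound by the hepatocyte factor HNF4, stands in 0.384% of promoters and in none of the 7.

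The Tg library held 96481752 unique molecular identifiers (UMIs) in 17462 barcodes and the WT library 97135016 UMIs in 15663 barcodes. After filtering, 14456 Tg and 12475 WT cells remained, with medians of 2780.5 and 4807 UMIs per cell, and 88 barcodes occurred in both libraries. Cells were clustered without the 9 genes and without other lipoprotein genes, whose counts entered only through the total used to scale each cell. Other hepatocyte genes stayed in, so the clusters could still follow apolipoprotein levels. Levels are CPM, a gene's UMIs divided by all UMIs of the same cells and scaled as is usual for CPM. A UMI tags 1 transcript end, so CPM are not scaled to transcript length and are not used here to rank genes. Adk itself, the overexpressed gene, stood at 576 CPM in the library labelled Tg and 709 CPM in the library labelled WT over pooled hepatocyte-like cells. It stood at 523 CPM in Tg and 453 CPM in WT in the deep cluster 10 described below (log2 ratio 0.21, 0.12–0.29). Over all hepatocyte-like cells with at least 5000 UMIs it stood at 530.4 CPM in Tg and 570 CPM in WT (log2 ratio −0.10, −0.16–−0.04). Below 1000 UMIs it stood at 736 CPM in Tg and 896 CPM in WT. From 1000 to under 5000 UMIs it stood at 855 CPM in Tg and 1044 CPM in WT. Adk thus goes against the labels in the pooled cells and in every depth bin, but not in cluster 10. In the periportal bin from 5000 UMIs, described below, it was also higher in Tg, at 529 CPM against 475 CPM in WT. The middle bin had 528 CPM in Tg and 645 CPM in WT, and the pericentral bin 536 CPM in Tg and 829 CPM in WT.

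Hepatocyte-like cells carried all 9 genes at higher CPM in the Tg library when they were pooled. There were 6125 of them in Tg and 1542 in WT, with medians of 1131 and 1273 UMIs. The 9 genes together took 62205 CPM (62128–62283) in Tg and 43978 CPM (43815–44142) in WT, a log2 ratio of 0.50 (0.49–0.51), or 1.41-fold. All 9 log2 ratios were above 0 and their median was 0.45, against −0.24 over the 10725 genes tested in these cells. TMM and DESeq2 scaling each moved all ratios by 0.25, and all 9 stayed above 0. Past 2-fold, 1 of the 9 was higher and 0 were lower, where 1.52% of all tested genes were higher and 6.14% lower. That count depended on the processing: 6 of the 9 were past 2-fold with at most 10% mitochondrial UMIs, where the summed log2 ratio was 0.90, and 5 of the 9 as a mean over cells or after thinning. The share of all tested genes past 2-fold was not computed in these settings, so these counts have no background. The 10% limit lies below the median mitochondrial share of the deep cluster 10 described below, in both libraries. The pooled value mixes cells of very different depth, and the next paragraphs give the parts.

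Among the genes of high-density lipoprotein, Apoa1, its main structural protein and the activator of the cholesterol-esterifying enzyme Lcat, was 6363 CPM in Tg and 4672 CPM in WT (log2 ratio 0.45, 0.43–0.46). Apoa2, the second structural protein of these particles, was 16076 CPM in Tg and 10690.0 CPM in WT (log2 ratio 0.59, 0.58–0.60). Both thus stood higher in Tg by less than 2-fold. Apoa4, a lipid-binding protein that gut and liver release with triglyceride-rich particles, was 239 CPM in Tg and 102 CPM in WT (log2 ratio 1.23, 1.11–1.35). It was the gene past 2-fold.

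Of the genes that act on triglyceride, Apoa5, which promotes lipolysis by lipoprotein lipase, was the closest to equal, at 491 CPM in Tg and 477 CPM in WT (log2 ratio 0.04, −0.02–0.09). Apoc3, an inhibitor of lipolysis and of particle uptake, was 6396 CPM in Tg and 4730.4 CPM in WT (log2 ratio 0.44, 0.42–0.45). Apoc1, which slows uptake by lipoprotein receptors, was 18723 CPM in Tg and 12988 CPM in WT (log2 ratio 0.53, 0.52–0.54). The inhibitors Apoc3 and Apoc1 therefore had larger ratios than Apoa5 in the pooled cells. Apob, the non-exchangeable backbone of triglyceride-rich particles, was 2263 CPM in Tg and 1479.5 CPM in WT (log2 ratio 0.61, 0.58–0.64). Apoe, a ligand of hepatic lipoprotein receptors, was 10490.4 CPM in Tg and 7947 CPM in WT (log2 ratio 0.40, 0.39–0.41). Apoh was 1164 CPM in Tg and 893 CPM in WT (log2 ratio 0.38, 0.34–0.42).

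**Figure D1:**
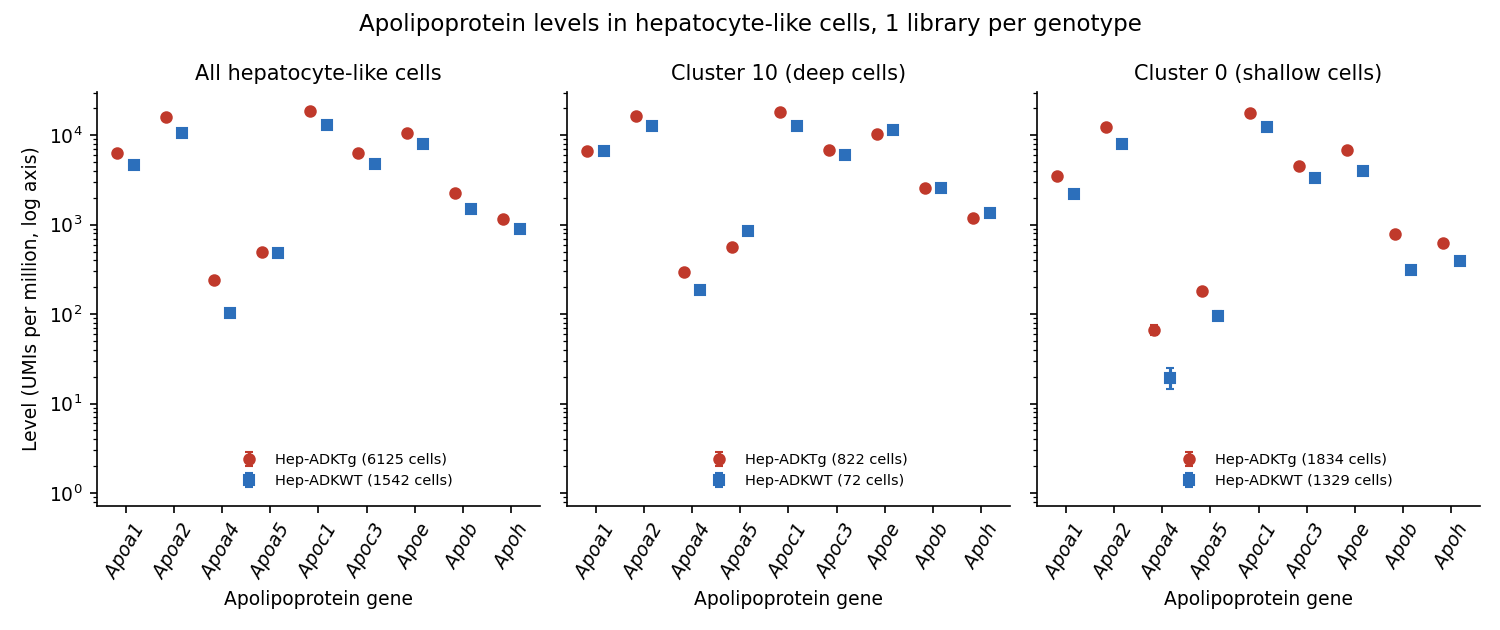
Levels of the 9 apolipoprotein genes (CPM, log axis) in all hepatocyte-like cells, in the deep cluster 10 and in the shallow cluster 0, with Tg as circles and WT as squares, 1 library per genotype; bars are 95% Poisson intervals and are mostly smaller than the symbols. All 9 genes are higher in Tg in the left and right panels, whereas in cluster 10 Apoa1 and Apob coincide and Apoa5, Apoe and Apoh are lower in Tg.

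The hepatocyte-like cells fell into clusters of unequal depth and unequal share in the libraries. Cluster 10 held deep cells, 822 in Tg and 72 in WT, with medians of 32605.5 and 43187.5 UMIs. Cluster 0 held shallow cells, 1834 in Tg and 1329 in WT, with medians of 1456.5 and 1278 UMIs. Cluster 0 made up most of the WT hepatocyte-like cells, while the largest Tg cluster was cluster 1, with 2580 Tg and 103 WT cells of medians 712 and 682 UMIs. Mitochondrial UMIs were a median 13.7% in Tg and 16.4% in WT in cluster 10, against 0.827% in Tg and 0.327% in WT in cluster 0. The part of these differences in the apolipoprotein ratios was not tested.

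In the deep cluster 10 the pooled pattern was replaced by a mixed one. The 9 genes summed to 63210 CPM in Tg and 54479 CPM in WT (log2 ratio 0.21, 0.21–0.22), and 4 of the 9 ratios were above 0. Their median was −0.00, against −0.03 over all 9820 genes tested there. None of the 9 passed 2-fold in either direction, where 1.99% of the tested genes were higher and 2.2% lower.

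Apoc1, Apoa2, Apoa4 and Apoc3 were the 4 that stayed above 0 in cluster 10. Apoc1 was 18274 CPM in Tg and 12805 CPM in WT (log2 ratio 0.51, 0.50–0.53). Apoa2 was 16292 CPM in Tg and 12579 CPM in WT (log2 ratio 0.37, 0.36–0.39). Both abundant small apolipoproteins thus differed by nearly as much or less than in the pooled cells. Apoa4 was 299 CPM in Tg and 188 CPM in WT (log2 ratio 0.67, 0.54–0.79), and Apoc3 was 6913 CPM in Tg and 6032 CPM in WT (log2 ratio 0.20, 0.17–0.22).

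Apoa1 and Apob did not differ beyond counting error in cluster 10. Apoa1 was 6689.8 CPM in Tg and 6732 CPM in WT (log2 ratio −0.01, −0.03–0.01), and Apob was 2548 CPM in Tg and 2555 CPM in WT (log2 ratio −0.00, −0.04–0.03). With TMM or DESeq2 scaling, which shifted cluster 10 by 0.03, these 2 ratios took the other sign and 6 of the 9 stood above 0. The remaining genes were lower in Tg. Apoa5 was 557 CPM in Tg and 851 CPM in WT (log2 ratio −0.61, −0.67–−0.55). Apoe was 10455 CPM in Tg and 11399 CPM in WT (log2 ratio −0.12, −0.14–−0.11), and Apoh was 1182 CPM in Tg and 1337 CPM in WT (log2 ratio −0.18, −0.23–−0.13). Alb, the hepatocyte's main secreted protein, was also lower there, at 26535 CPM in Tg and 33060.1 CPM in WT, so albumin and the apolipoprotein sum differed in opposite directions in these cells.

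The shallow cluster 0 had every one of the 9 genes higher in Tg. The sum was 46661 CPM in Tg and 30617 CPM in WT (log2 ratio 0.61, 0.60–0.62). Apob and Apoa4 were the 2 of 9 past 2-fold, where 2.6% of all tested genes were higher and 3.63% lower. Apob was 780.3 CPM in Tg and 309 CPM in WT (log2 ratio 1.34, 1.23–1.45), and Apoa4 was 66.3 CPM in Tg and 19.1 CPM in WT (log2 ratio 1.80, 1.37–2.24). Apoe was 6765 CPM in Tg and 3969 CPM in WT (log2 ratio 0.77, 0.74–0.80), and Apoa5 was 181 CPM in Tg and 96.1 CPM in WT (log2 ratio 0.91, 0.71–1.12). Apoc1, at 17751 CPM in Tg and 12347 CPM in WT, had nearly the same log2 ratio here (0.52) as in cluster 10. Cluster 1 gave a sum of 58719 CPM in Tg and 51492 CPM in WT (log2 ratio 0.19) with 5 of 9 ratios above 0 and 0 past 2-fold, where 12.8% of all tested genes were higher and 8.95% lower.

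Cutting the hepatocyte-like cells by depth alone also gave larger ratios in shallow than in deep cells, although cluster 1, shallow in both libraries, did not show them. Below 1000 UMIs (2702 Tg and 596 WT cells) the median log2 ratio of the 9 genes was 1.01, with 5 of them higher by 2-fold, where 6.85% of all tested genes were. From 1000 to under 5000 UMIs (2305 Tg and 746 WT cells) it was 1.04, again with 5 higher, where 6.24% of all tested genes were. At 5000 UMIs or more (1118 Tg and 200 WT cells) it was 0.33, with 0 higher, where 1.35% were. This deepest bin was not matched between the libraries, with medians of 29830 UMIs and 13.2% mitochondrial UMIs in Tg against 9592.5 UMIs and 1.75% in WT.

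Individual genes followed depth unequally. Apoe was 11662 CPM in Tg and 5449 CPM in WT below 1000 UMIs, 10108 CPM in Tg and 4710 CPM in WT in the middle bin, and 10470 CPM in Tg and 9358 CPM in WT in the deepest bin. In Tg, then, its level hardly moved with depth, whereas in WT it was highest in the deep cells. Apoc1 was 16672, 17392 and 19015 CPM in Tg across the 3 bins and 11940, 12652 and 13212 CPM in WT. Apoa5, at 523 CPM in Tg and 641 CPM in WT, was the gene below 0 in the deepest bin (log2 ratio −0.29, −0.35–−0.24), against 305 CPM in Tg and 99.6 CPM in WT in the middle bin.

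Within a library, the genes lost unequal shares of their level between deep and shallow hepatocyte-like cells. Apoc1 in cluster 0 stood at 0.97 of its cluster 10 level in Tg and 0.96 in WT. Apoa2 stood at 0.77 in Tg and 0.63 in WT, and Apoc3 at 0.66 in Tg and 0.55 in WT. These small proteins thus kept most of their CPM. Apob stood at 0.31 in Tg and 0.12 in WT, Apoa5 at 0.32 in Tg and 0.11 in WT, and Apoa4 at 0.22 in Tg and 0.10 in WT. Apoe (0.65 in Tg and 0.35 in WT), Apoh (0.53 and 0.29) and Apoa1 (0.52 and 0.33) were between them. The shallow cells were not uniformly poor in hepatocyte transcripts, since Adk was 1.94 times its cluster 10 level in Tg and 2.19 times in WT, while Alb was at 0.33 in Tg and 0.16 in WT. The 8 genes other than Apoc1 kept a smaller share in WT than in Tg, and Apoc1 kept nearly equal shares.

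Cluster 27 was a second group of deep hepatocyte-like cells, 222 in Tg and 12 in WT, with medians of 23307.5 and 24340.0 UMIs. Too few WT cells were present for a comparison of genotypes there. Relative to cluster 10 of the same library, Apoa4 was at 0.29 in Tg and 0.25 in WT, and Apoa5 at 0.73 in Tg and 0.68 in WT. Apoc1 was at 1.23 in Tg and 1.62 in WT, and Apoa2 at 1.05 in Tg and 1.39 in WT. Apoe, at 1.07 in Tg and 1.04 in WT, was close to its cluster 10 level. In both libraries, then, Apoa4 was the member that separated the deep clusters most.

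**Figure D2:**
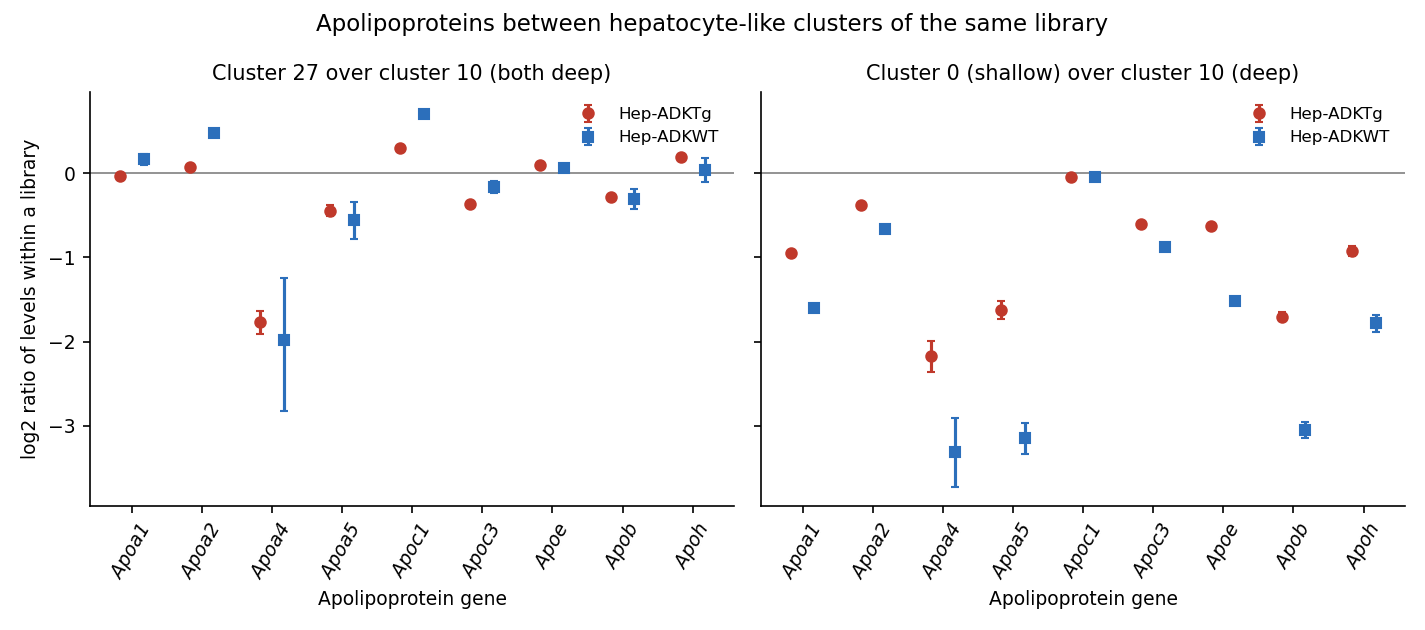
Log2 ratio of each gene's level (CPM) between hepatocyte-like clusters of the same library, cluster 27 over cluster 10 (left) and cluster 0 over cluster 10 (right), with Tg as circles, WT as squares and 95% intervals for counting error. Apoa4 is lowest on the left in both libraries (0.29-fold in Tg and 0.25-fold in WT), and on the right Apoc1 stays near 0 while Apob, Apoa5 and Apoa4 fall furthest.

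Deep Tg cells were many enough to describe the spread among single hepatocyte-like cells. Over the 1118 Tg cells with at least 5000 UMIs, the coefficient of variation of CPM was 24.7% for Apoc1, 29.3% for Apoa2, 31.3% for Apoc3, 38.1% for Apoe, 39.2% for Apob, 40.1% for Apoa1 and 40.4% for Apoh. It was 58.8% for Apoa5 and 108% for Apoa4, the sparser genes, where counting noise adds more. Apoc1 ran from 3584 to 41662 CPM with a median of 18876 CPM, and no cell lacked it. Apoa4 ran from 0 to 2885 CPM with a median of 178 CPM, and 14.5% of the cells had none.

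The genes did not vary as 1 block across these Tg cells. Spearman's rho over the 1118 cells, which share a library and differ in depth, was 0.64 between Apoe and Apoh, 0.54 between Apoa2 and Apoc3, 0.50 between Apoa2 and Apoc1, and 0.47 between Apoa1 and Apoe. It was −0.33 between Apob and Apoc1. Among neighbours on the chromosome, rho was 0.38 between Apoa4 and Apoc3, 0.30 between Apoa4 and Apoa5, 0.10 between Apoa1 and Apoc3 and −0.06 between Apoe and Apoc1. A zone score, the log2 of summed pericentral over periportal marker CPM, had a rho of −0.52 with Apoa4, −0.43 with Apob, −0.37 with Apoc3 and −0.32 with Apoa5. Its rho was 0.22 with Apoc1 and −0.02 with Apoe. Apob also had a rho of 0.39 with UMIs per cell. Over the 200 WT cells with at least 5000 UMIs, whose median was 9592.5 UMIs, every pair of the 9 genes had a positive rho, among them 0.42 between Apoe and Apoc1, 0.73 between Apoa1 and Apoc3 and 0.17 between Apob and Apoc1. Apoe there had a rho of −0.51 with the zone score and 0.57 with UMIs per cell.

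Cut by that score into 3 bins of like size among the same Tg cells, the pericentral bin had 0.33 of the periportal bin's Apoa4 CPM, 0.71 of its Apoa5, 0.76 of its Apoc3, 0.78 of its Apob and 1.18 times its Apoc1. The median depths were 35829 UMIs in the periportal bin, 29749 UMIs in the middle bin and 21023 UMIs in the pericentral bin. In these cells 376 lay within 0.5 of a boundary between bins (log2 score). Apoa4, Apoa5 and Apoc3 thus leaned periportal by these scores together with Apob, with depth moving the same way. Apoa1, which shares the chromosome 9 cluster with the first 3, did not, at 1.03 times. In WT from 5000 UMIs, the pericentral bin had 0.24 of the periportal bin's Apob, 0.45 of its Apoa1, 0.48 of its Apoe and 1.11 times its Apoc1. Median depths there were 7732.5 UMIs in the pericentral bin and 43226 UMIs in the periportal bin. With a minimum of 2000 UMIs the pericentral and periportal bins were further apart in depth (medians of 3585.5 against 34472 UMIs in Tg and 3477 against 7657.5 UMIs in WT), and Apoa4 stood at 0.20 in Tg and 0.05 in WT. Apoa1 in Tg took the other sign between these minimums, with a log2 ratio of −0.14 (−0.16–−0.12) from 2000 UMIs and 0.05 (0.03–0.06) from 5000 UMIs.

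The other genes of lipoprotein metabolism give the setting in hepatocyte-like cells. Of 8 further apolipoproteins with enough UMIs, 8 had ratios above 0 in the pooled cells and 0 passed 2-fold, with a median log2 ratio of 0.69. Apon was 540 CPM in Tg and 271 CPM in WT, Apof 515 CPM in Tg and 298 CPM in WT, and Clu 1410 CPM in Tg and 833 CPM in WT. In cluster 10, 8 of 8 were again above 0, with a median of 0.36 and 1 higher by 2-fold, where 1.99% of all tested genes were. Apoc4, next to Apoe and Apoc1, was 2540.4 CPM in Tg and 1834 CPM in WT there. The further apolipoproteins therefore shared the direction of Apoc1 and Apoa2 in cluster 10 and not that of Apoa5, Apoe and Apoh.

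Genes of particle assembly had a median log2 ratio of 0.41 pooled, with 9 of 11 above 0 and 0 past 2-fold. In cluster 10 their median was −0.08, with 3 of 11 above 0 and 1 higher by 2-fold, where 1.99% of all tested genes were. Mttp, which loads lipid onto Apob, was 95.5 CPM in Tg and 70.9 CPM in WT pooled, and 104 CPM in Tg and 119 CPM in WT in cluster 10. Like Apob itself, it was higher in the pooled Tg cells and was not in cluster 10. Of 10 genes that remodel particles in plasma, 2 were higher and 1 lower by 2-fold in the pooled cells. Over all genes tested there, 1.52% were higher and 6.14% lower. Angptl4, an inhibitor of lipoprotein lipase, was 82.2 CPM in Tg and 33.9 CPM in WT pooled and 87.1 CPM in Tg and 46.4 CPM in WT in cluster 10, and Lcat was 186 CPM in Tg and 138 CPM in WT pooled and 199 CPM in Tg and 217 CPM in WT in cluster 10.

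Receptors had 5 of 8 ratios above 0 in the pooled cells. By 2-fold, 0 were higher and 1 lower, where 1.52% and 6.14% of all tested genes were. Mylip, a ubiquitin ligase, was 3.10 CPM in Tg and 6.66 CPM in WT pooled. Of 5 cholesterol efflux genes, 3 were above 0 and 0 passed 2-fold, and Abca1, which loads cholesterol onto Apoa1, was 86.0 CPM in Tg and 53.0 CPM in WT.

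Transcription factors of the liver stayed near the median of all genes in the pooled cells. Of 14 with enough UMIs, 3 had ratios above 0, and the median was −0.22, beside −0.24 for all genes. By 2-fold, 0 were higher and 2 lower, where 1.52% of all tested genes were higher and 6.14% lower. Hnf4a, a main activator of apolipoprotein genes, was 217 CPM in Tg and 251 CPM in WT. Onecut1, a hepatocyte factor, was 15.01 CPM in Tg and 38.5 CPM in WT, and Nr1h4, the bile acid receptor, was 41.9 CPM in Tg and 84.4 CPM in WT. In cluster 10 the median of the 14 was −0.21, against −0.03 for all genes, with 3 above 0. By 2-fold, 0 were higher and 1 lower there, where 1.99% of all tested genes were higher and 2.2% lower. Onecut1 was 15.8 CPM in Tg and 52.9 CPM in WT in cluster 10, and Hnf4a was 204 CPM in Tg and 214 CPM in WT.

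Outside hepatocytes, Apoe was highest in a cluster of macrophages. Its observed CPM there, transcripts from other cells included, was nearly equal in both libraries. The cluster, 204 cells in Tg and 91 in WT with medians of 1705 and 2622 UMIs, was led by the complement genes C1qa, C1qb and C1qc. Clec4f, which marks Kupffer cells, the resident liver macrophages, had a UMI in 13.2% of the Tg and 12.1% of the WT cells, so it is called the C1q macrophage cluster here. Its 12 Kupffer cell markers summed to 11776 CPM in Tg and 11720.5 CPM in WT with 0 at 0, but that sum was mostly C1qa, C1qb and C1qc. C1qa was 3572 CPM in Tg and 3863 CPM in WT, whereas Clec4f was 316 CPM in Tg and 82.5 CPM in WT, Cd5l was 586 CPM in Tg and 114 CPM in WT, and Vsig4 was 193 CPM in Tg and 91.4 CPM in WT. Adgre1, a general macrophage marker, was 245 CPM in Tg and 386 CPM in WT. The macrophages of the 2 libraries thus differed in make-up, and the part of that in their Apoe was not tested. Apoe was 15208 CPM (14924–15497) in Tg and 15053 CPM (14696–15416) in WT, from 10877 and 6753 UMIs. The log2 ratio was 0.01 (−0.03–0.06), a difference within counting error. Single cells ran from 701 to 108794 CPM of Apoe with a median of 14174 CPM in Tg, and from 0 to 68226 CPM with a median of 16778.5 CPM in WT, so the 2 sets of cells overlapped widely.

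The other apolipoproteins in the same macrophages were far from equal between the libraries. Of 7 members with enough UMIs, 6 were higher in Tg by 2-fold, all but Apoe, where 7.64% of the tested genes were higher and 2.05% lower. The 8 genes other than Apoe summed to 8103 CPM in Tg and 1115 CPM in WT (log2 ratio 2.86, 2.73–2.997). Apoa2 was 2594 CPM in Tg and 201 CPM in WT, Apoa1 was 1086 CPM in Tg and 172 CPM in WT, and Apoc1 was 2879 CPM in Tg and 506 CPM in WT. The 13 hepatocyte markers moved with them, at 12011 CPM in Tg and 1803 CPM in WT with 0 at 0, and the part of that in these ratios was not tested.

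**Figure D3:**
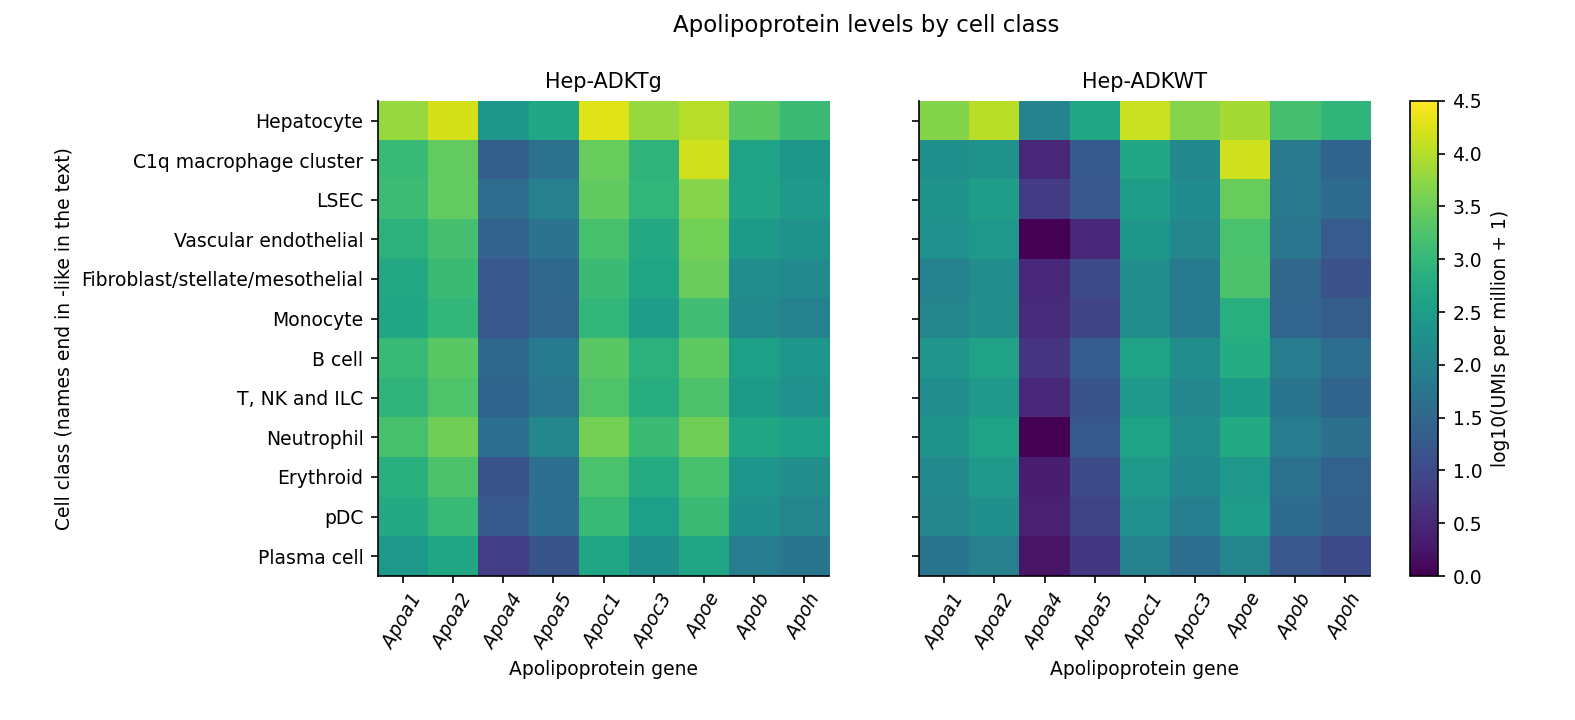
Level of each apolipoprotein gene (colour, log10 of CPM + 1) in 12 cell classes of the Tg library (left) and the WT library (right). Every gene but Apoe is highest in hepatocyte-like cells, Apoe is highest in the C1q macrophage cluster at 15208 CPM in Tg and 15053 CPM in WT, and most other rows are brighter in Tg.

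Hepatocyte transcripts were found in every class, so each class carries free RNA (transcripts from broken cells caught in droplets) that has to be set beside its Apoe. As a yardstick, the ratio of Apoe to the other 8 genes was taken from B cell-like cells of the same library (0.34 in Tg and 0.47 in WT) and multiplied by the other 8 genes in each class. The other 8 genes include Apoc1, which stood above its own yardstick in some macrophages and in cholangiocyte-like cells, as given below. This yardstick gave 2754 CPM of Apoe in the Tg macrophages and 521 CPM in the WT macrophages. Observed Apoe was 5.52 times it in Tg and 28.9 times it in WT. The Apoe above it was lower in Tg, at 12455 CPM (12170–12743), than in WT, at 14532 CPM (14175–14895), unlike the nearly equal observed levels. The yardstick itself depends on the class it comes from, since the ratio was 0.31 in both libraries in T, NK and ILC lymphocyte-like cells and 0.20 in Tg and 0.22 in WT in hepatocyte-like cells.

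A split made after these values were seen separated macrophages with and without a UMI of Clec4f, Vsig4, Cd5l or Timd4, genes of resident Kupffer cells. With such a UMI (53 Tg and 16 WT cells) Apoc1 was 4896 CPM in Tg and 2630.0 CPM in WT, 1.77 times its own yardstick in Tg and 6.40 times in WT. That left 2128 CPM (1775–2501) above it in Tg and 2219 CPM (1794–2702) in WT. Without such a UMI (151 Tg and 75 WT cells) Apoc1 was 2365 CPM in Tg and 232 CPM in WT, 0.997 times the yardstick in Tg and 0.98 times in WT. Apoc1 above the yardstick thus went with the Kupffer genes in both libraries. Observed Apoe did not go with the Kupffer genes. In Tg it was lower with such a UMI, at 12848 CPM (12272–13445), than without, at 15810 CPM (15485–16140). In WT it was 15605 CPM with such a UMI and 14982 CPM without, with overlapping intervals. These Apoe levels are observed CPM and not CPM above the yardstick.

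**Figure D4:**
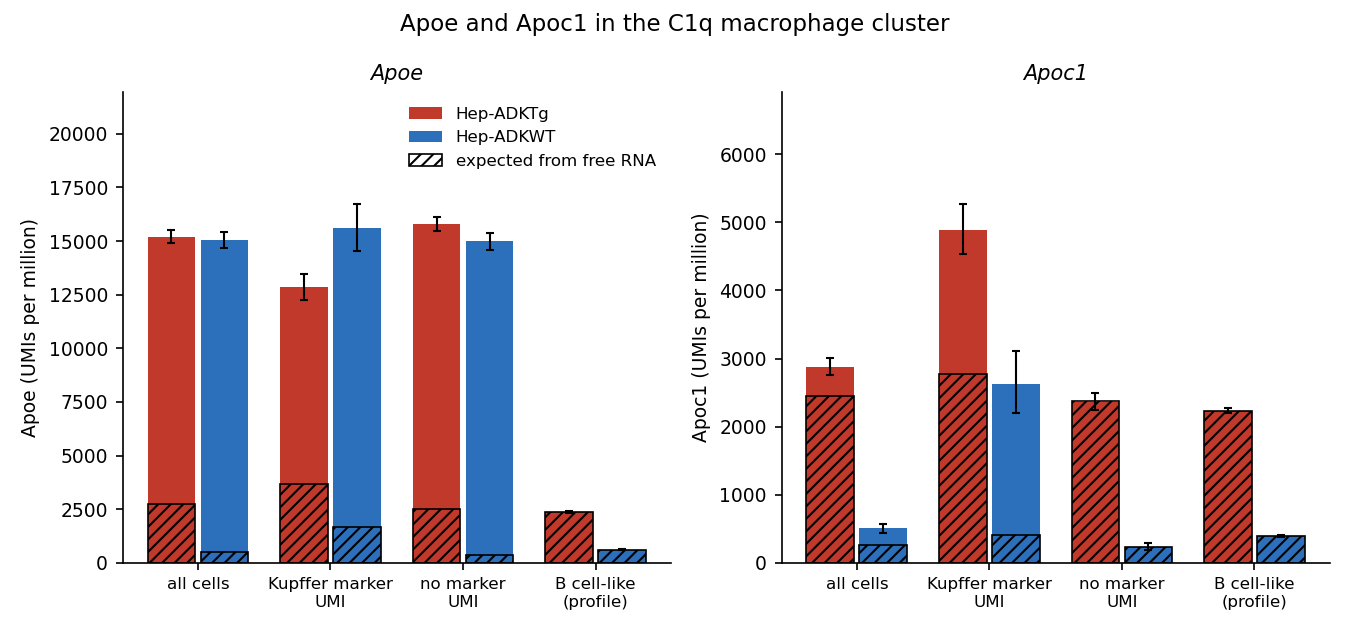
Apoe (left) and Apoc1 (right) in CPM in the C1q macrophage cluster, in its cells with and without a UMI of Clec4f, Vsig4, Cd5l or Timd4, and in B cell-like cells, with the Tg bar left of the WT bar; thin bars are 95% Poisson intervals and hatching is the level expected from the ratios in B cell-like cells. Apoe stands far above the hatching in every macrophage group, while Apoc1 does so in the cells with a Kupffer marker UMI (4896 CPM in Tg and 2630.0 CPM in WT).

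Among the wider lipoprotein genes in the macrophage cluster, 4 of 4 further apolipoproteins with enough UMIs were higher in Tg by 2-fold, where 7.64% of all tested genes were and the hepatocyte markers were 12011 CPM in Tg and 1803 CPM in WT. Of 7 lipid-associated macrophage genes with enough UMIs, 4 were above 0, with a median log2 ratio of 0.12. Past 2-fold, 0 of them were higher and 1 was lower, where 7.64% and 2.05% of all tested genes were. Trem2, a lipid receptor of macrophages, was 88.1 CPM in Tg and 201 CPM in WT (log2 ratio −1.19). Of 3 cholesterol efflux genes, 2 were above 0 and 1 was higher by 2-fold, where 7.64% of all tested genes were. Nr1h3, the oxysterol receptor LXR alpha, which drives Apoe and Abca1, was 165 CPM in Tg and 64.6 CPM in WT (log2 ratio 1.35). Abca1 itself was 68.5 CPM in Tg and 80.2 CPM in WT, and Lpl, lipoprotein lipase, was 225 CPM in Tg and 125 CPM in WT. The part of hepatocyte transcripts and of macrophage make-up in these values was not tested.

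Apoe also stood above the yardstick in endothelial and mesenchymal cells. In liver sinusoidal endothelial cell-like (LSEC-like) cells it was 4719 CPM in Tg and 2888 CPM in WT, which left 1996 CPM (1943–2049) above it in Tg and 2362 CPM (2323–2402) in WT. The observed log2 ratio was 0.71, while the part above the B cell-like yardstick was not higher in Tg. That order rests on the B cell-like ratio, and the lower ratio of hepatocyte-like cells would reverse it. In vascular endothelial cell-like cells Apoe was 3435 CPM in Tg and 1645 CPM in WT, of which 1788 CPM in Tg and 1237 CPM in WT stood above. In fibroblast, stellate or mesothelial cell-like cells it was 2906 CPM in Tg and 1724 CPM in WT, of which 1673 CPM in Tg and 1470.1 CPM in WT stood above. Monocyte-like cells had 1321 CPM in Tg and 685 CPM in WT, 1.30 and 2.56 times the yardstick.

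A pair of small groups had more. In cholangiocyte-like cells, the lining of the bile ducts (100 Tg and 35 WT cells), Apoe was 11792 CPM in Tg and 7919 CPM in WT, 8.57 times the yardstick in Tg and 9.24 times in WT, and Apoc1 was 2362 CPM in Tg and 1408 CPM in WT, 2.98 and 7.87 times its yardstick. In cluster 29 (154 Tg and 45 WT cells), which stayed unnamed because fibroblast or stellate markers came with endothelial ones, Apoe was 6509.8 CPM in Tg and 3948 CPM in WT, 3.15 and 5.10 times the yardstick. WT cells numbered under 50 in both groups, so no ratio between the libraries is given.

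In the remaining classes Apoe was near or below the B cell-like yardstick, and its level was not read as more than background. A yardstick with a lower ratio would raise the values that follow. Observed over expected Apoe was 0.92 in Tg and 0.67 in WT in T, NK and ILC lymphocyte-like cells, 0.88 in Tg and 0.61 in WT in erythroid cell-like cells, 0.93 in Tg and 0.90 in WT in neutrophil-like cells, 0.98 in Tg and 1.01 in WT in plasmacytoid dendritic cell-like cells, and 0.91 in Tg and 0.77 in WT in plasma cell-like cells. Values under 1 mean that B cell-like cells had more Apoe for their other apolipoproteins than these classes did, most so in WT.

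**Figure D5:**
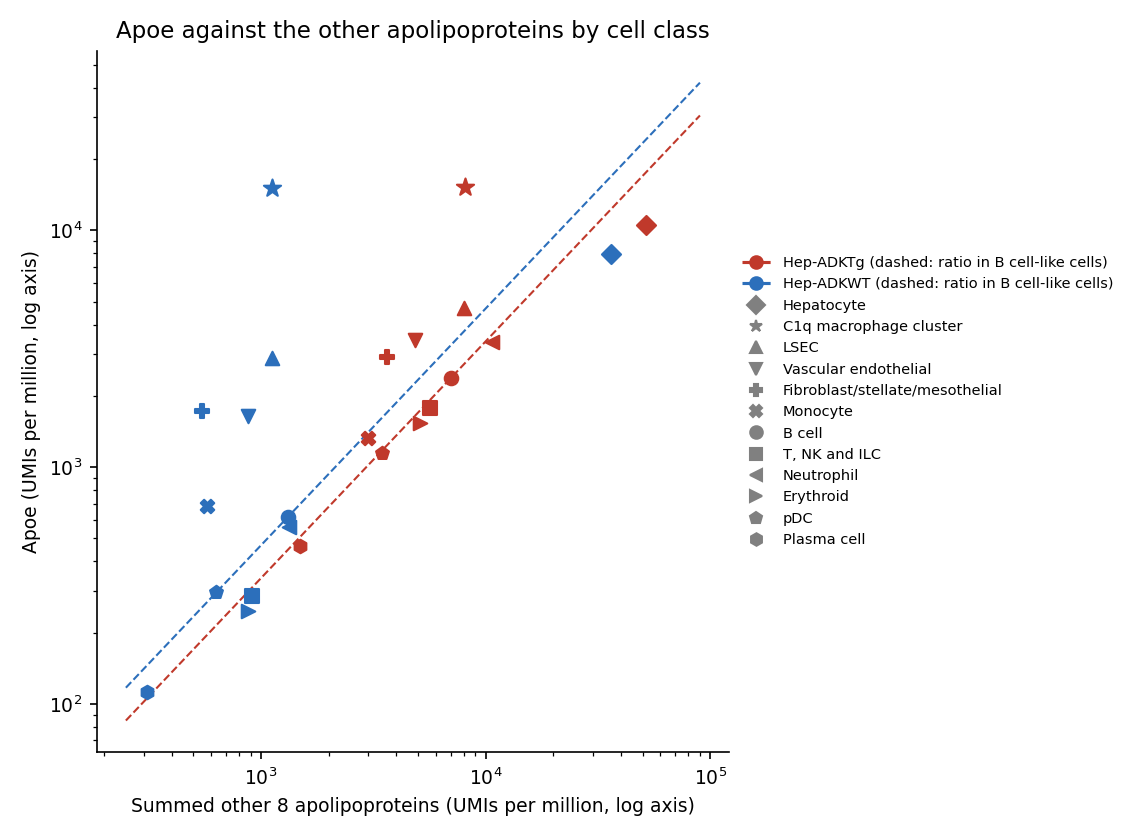
Apoe against the summed other 8 apolipoproteins (CPM, log axes) in 12 cell classes of the Tg (red) and WT (blue) libraries, 1 symbol per class; each dashed line is the ratio in B cell-like cells of that library. The C1q macrophage cluster, endothelial and fibroblast classes lie above their lines. Lymphocytes and erythroid cells lie on or below theirs, and hepatocyte-like cells lie below at the right. The red symbol of each class lies right of its blue one.

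The free apolipoprotein RNA itself was several times higher in Tg in every class. The 8 genes other than Apoe summed to 6995 CPM in Tg and 1317 CPM in WT in B cell-like cells (log2 ratio 2.41, 2.38–2.44). They summed to 5678 CPM in Tg and 912 CPM in WT in T, NK and ILC lymphocyte-like cells (log2 ratio 2.64, 2.62–2.66), and 8013 CPM in Tg and 1123 CPM in WT in LSEC-like cells (log2 ratio 2.84, 2.80–2.87). Over all 11 classes other than hepatocyte-like cells, the sum lay between 1489.8 CPM (plasma cell-like) and 10653 CPM (neutrophil-like) in Tg and between 311 CPM (plasma cell-like) and 1333 CPM (neutrophil-like) in WT. The log2 ratios had a median of 2.55. TMM scaling moved all ratios up by 0.89 in erythroid and 0.55 in plasma cell-like cells and by between −0.03 and 0.19 in the other 9 classes. They were thus all larger than the log2 ratio of 0.52 for the same 8 genes in the hepatocyte-like cells, where these genes are highest.

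By single genes, 9 of 9 were higher in Tg by 2-fold in B cell-like cells, where 6.21% of all tested genes were, and 9 of 9 in T, NK and ILC lymphocyte-like cells, where 6.67% were. In LSEC-like cells 8 of 9 were, against 5.71% of all tested genes, and in monocyte-like cells 8 of 9, against 3.86%. The exception in LSEC-like cells was Apoe. Where fewer had enough UMIs, 8 of 8 were higher in erythroid (background 10.4%), neutrophil (6.44%), plasmacytoid dendritic (2.89%), plasma (2.65%) and vascular endothelial cell-like cells (4.65%), and 6 of 7 in fibroblast, stellate or mesothelial cell-like cells (3.3%). Among T, NK and ILC lymphocytes, B cells and LSEC, most Tg and WT cells lay in different clusters. T, NK and ILC lymphocytes lay mostly in clusters 2 and 15 for Tg and clusters 5, 8, 12 and 16 for WT. B cells lay mostly in cluster 6 for Tg and 3 for WT, and LSEC in clusters 4 and 9 for Tg and 7 and 19 for WT. Monocyte, erythroid, neutrophil, plasmacytoid dendritic and plasma cell-like cells each formed a cluster shared by both libraries.

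Lymphocytes show how far this RNA reached into single cells. At least 1 Apoa1 UMI was found in 95.9% of Tg and 49.3% of WT B cell-like cells, and an Apoe UMI in 99.9% of Tg and 76.2% of WT cells, at median depths of 3153 and 3573.5 UMIs. With each cell thinned to 500 UMIs the shares were 44.9% of Tg and 12.0% of WT cells for Apoa1, 67.4% and 27.3% for Apoe, and 1.7% and 0.4% for Apoa4. In hepatocyte-like cells thinned alike, Apoa1 was found in 89.5% of Tg and 64.1% of WT cells.

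The sum of the 8 genes per T, NK and ILC lymphocyte-like cell had a median of 5249 CPM in Tg, with 2773 to 11089 CPM between the 10th and 90th percentiles, and a median of 643 CPM in WT, with 173 to 2298 CPM between them. The 10th percentile in Tg thus lay above the 90th in WT. No Tg cell and 3.84% of WT cells had none of the 8. The WT cells that clustered with the Tg majority were different: in clusters 2, 4, 6 and 15 (222, 77, 147 and 57 WT cells) the members' median log2 ratio was 0.12, 0.16, 0.01 and 0.05. WT cells with nearly as much apolipoprotein RNA as Tg cells therefore existed and were few, and hepatocyte genes other than apolipoproteins had entered the clustering.

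The make-up of the free RNA differed from that of the pooled hepatocyte-like cells in the shares of Apoe and Apoc1. Apoe made up 23.8% of the 9 genes' UMIs in Tg and 23.8% in WT in T, NK and ILC lymphocyte-like cells, and 23.0% in Tg and 22.1% in WT in erythroid cell-like cells. In hepatocyte-like cells it made up 16.9% in Tg and 18.1% in WT. Apoc1 was the reverse, at 24.2% in Tg and 22.5% in WT in lymphocytes and 30.1% in Tg and 29.5% in WT in hepatocyte-like cells. Apoa1, Apoa2 and Apob differed less. In T, NK and ILC lymphocyte-like cells, for instance, Apoa2 made up 24.4% in Tg and 22.4% in WT, against 25.8% and 24.3% in hepatocyte-like cells.

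Over the 24 pairs of class and library (12 classes, which share 2 libraries and their free RNA), the genes whose log2(CPM + 10) was most like that of Apoe among 13177 genes included Cd302 (Pearson r 0.886), Tmem205 (0.873), Agmo (0.871) and Tmem37 (0.858). The other 8 members had r between 0.645 and 0.725 with Apoe. The sum of those 8 was most like the hepatocyte genes Mup20 (0.998), Mup3 (0.998), Hpx (0.998), Alb (0.997) and Apoc4 (0.996). Across classes, then, Apoe ranged apart from the other apolipoproteins, which ranged with hepatocyte genes at large.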

How the data were processed

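Single-cell libraries of liver non-parenchymal cells, 1 per genotype, were analysed from the deposited matrices. The deposited values are whole-number UMI counts per gene and barcode; per the submitters' processing notes the authors used Cell Ranger 6.1.2, R 4.1.0, Seurat 4.0.2 and GRCm38/mm10, while the file headers name an earlier Cell Ranger release. The series text names SoupX and Harmony, but whole counts were treated as uncorrected. No annotation is named in the sources used here; 32158 of 32285 identifiers were found in GENCODE M21.

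Barcodes with at least 500 UMIs, 200 genes and at most 20% mitochondrial UMIs were kept. Scrublet's automatic threshold marked 0 Tg and 1 WT cells and had not worked, so scores above 0.2 were removed (397 Tg and 486 WT cells). Clusters were made with scanpy 1.11.5 (2000 variable genes, 30 components, 15 neighbours) and leidenalg 0.10.2 at resolution 1, without lipoprotein genes, and were named from markers ("-like") by a rule set after the clusters were seen. The study may have named cells differently.

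Cells are not replicates, so UMIs were summed per class and library, and no test was possible. CPM carry exact Poisson, ratios exact conditional binomial and shares exact Clopper-Pearson intervals (95%, counting error only). Genes with at least 50 UMIs in a class and classes with at least 50 cells in each library were compared, and "called" means past 2-fold. The genes named beyond the 9 were, in each list, a few fixed enzymes, receptors and factors (among them Mttp, Lcat, Abca1, Hnf4a, Lpl) and those with the largest ratios, with others of a list given for context after their values were seen. The members and lists were chosen with earlier results of these data known. Alternatives covered resolution, depth and mitochondrial limits, doublets, TMM (edgeR 4.0.16) and DESeq2 1.42.0 scaling, per-cell means and thinning to 500 UMIs. The interval and ratio steps were tested on simulated data. Intervals came from scipy 1.17.1 and figures from matplotlib 3.10.9 (Python 3.11.15, R 4.3.3). Some genes that the naming rule takes are not reported here.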

Additional observations from a re-analysis of the deposited data

Results flagged for a closer look

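Of the 9 genes, 3 differed between Tg and WT in opposite directions in the deep and the shallow hepatocyte-like clusters, beyond counting error in both. Apoa5 had a log2 ratio of −0.61 in cluster 10 and 0.91 in cluster 0. Apoe had −0.12 in cluster 10 and 0.77 in cluster 0, and Apoh had −0.18 in cluster 10 and 0.68 in cluster 0. With 1 library per genotype the difference between clusters was not tested.

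The barcodes left out for more than 20% mitochondrial UMIs, 2604 in Tg and 1418 in WT, also held the 9 genes. The sum was 37764 CPM in Tg and 23115 CPM in WT, with Apoc1 at 9988 CPM in Tg and 4727 CPM in WT and Apoe at 8772 CPM in Tg and 6365 CPM in WT. Their median mitochondrial share was 41.5% in Tg and 63.4% in WT. Apoe made up 23.2% of the 9 genes' UMIs there in Tg and 27.5% in WT.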

How the results depend on the processing

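The log2 ratio of the 9 summed genes in hepatocyte-like cells (0.50) kept its direction in every alternative run. It was 0.24 at clustering resolution 2.0, 0.48 with at least 1000 UMIs, 0.90 with at most 10% mitochondrial UMIs, 0.48 with doublets kept, 0.75 with TMM scaling, 0.75 with DESeq2 scaling, 0.54 without mitochondrial and haemoglobin UMIs in the total, 0.75 as a mean over cells, 0.75 after thinning and 0.38 at 5000 UMIs or more. It was 0.21, 0.61 and 0.19 in clusters 10, 0 and 1, settings chosen after seeing the data. The number of the 9 higher by 2-fold (1) was 0 at resolution 2.0, at 5000 UMIs or more and in clusters 10 and 1, 2 in cluster 0, 5 as a mean over cells or thinned and 6 with at most 10% mitochondrial UMIs, and the number lower stayed 0. The share of all tested genes was not computed at resolution 2.0, at the 10% limit, as a mean over cells or thinned. Macrophage Apoe (0.01) was 0.077 with at least 1000 UMIs, −0.17 as a mean over cells and −0.20 thinned, without a call in either direction. The median ratio of the other 8 genes outside hepatocytes (2.55) was 2.80 with TMM, 2.81 with DESeq2, 2.63 without mitochondrial and haemoglobin UMIs and 2.48 thinned. Macrophage Apoe above the yardstick was 12940 CPM with at least 1000 UMIs, 12787 CPM in cells with 3 Kupffer markers, 13565 CPM with the hepatocyte ratio and 12782 CPM with the erythroid ratio in Tg (12455 CPM), and 13889 CPM with at least 1000 UMIs and 14151 CPM with doublets kept in WT (14532 CPM). Of 18 zone ratios, 13 moved and 1 reversed between minimums of 2000 and 5000 UMIs: Apoa1 in Tg was −0.14 from 2000 UMIs and 0.047 from 5000 UMIs. The causes were not tested. No paired analysis was possible because each genotype has 1 library. With 72 WT cells in cluster 10 and 91 in the macrophage cluster, depth limits Apoa4 and Apoa5 most: in those macrophages they had 1 and 8 UMIs in WT.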

Other observations

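Barcodes dominated by haemoglobin with under 200 genes were nearly all in the WT library (4 in Tg and 1291 in WT), and the 9 apolipoprotein genes summed to 1056 CPM in the WT ones. Apoe made up 21.1% of that sum.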
